A study of Sebastes mystinus with 44 samples.

Results

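White muscle of juvenile blue rockfish (Sebastes mystinus) kept in seawater of lowered oxygen was compared between 24 h and 2 weeks of exposure. The comparison rests on 7 of the 44 libraries of the study. They are all those labelled DO at these times: 3 fish sampled at 24 h (Mys34, Mys35 and Mys36) and 4 fish sampled at 2 weeks (Mys57, Mys58, Mys59 and Mys60). Each library is a different fish, so no fish was followed over time. The study as a whole asked how muscle gene expression responds to high pCO2 and to hypoxia over 12 h, 24 h and 2 weeks, with 4 exposures named control, pH, DO and cross.

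Per the labels, juveniles lived 10 to a tank in 8 aquaria of flowing seawater at 11.4 to 12.3 °C. Oxygen was lowered by nitrogen bubbling for DO fish, and pH by carbon dioxide bubbling for pH fish. Control fish stood in seawater that no label describes as altered, and the labels leave cross undefined. Neither the oxygen level reached nor each fish's aquarium was known here. The 44 fish outnumber the 8 aquaria, so some fish must have shared an aquarium, and fish of 1 group may have done so. Beside the 7 DO fish, 8 control fish (4 at 24 h, 4 at 2 weeks), 5 pH fish (3 and 2) and 8 cross fish (4 and 4) give the same time step in other animals.

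White muscle makes up most of a fish's trunk and powers short bursts of swimming. It runs largely on glycolysis, with few mitochondria and a sparse blood supply, and it is the main protein store of the body. In vertebrates, low oxygen is sensed by prolyl hydroxylases that otherwise mark hypoxia-inducible factors for breakdown, and these factors turn on genes of glucose uptake, glycolysis and vessel growth. The deposited tables list features of a de novo transcript assembly by Trinity identifier and pair none with a gene name or a sequence. No member of these pathways and no marker of muscle or of another cell type could therefore be looked up, and the labelled tissue was not checked against markers.

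The 7 DO libraries held 14309945 to 19464650 counts each, so 3 counts, taken as the lowest level a library resolves, stood for 0.0839 (Mys35) to 0.247 CPM, which are counts scaled to a common library size with TMM factors (counting error only). Total counts did not differ between the times beyond the spread between fish (exact permutation test, two-sided, p = 0.457; with 3 against 4 fish the smallest p is 0.0571). No library was a copy of another, since counts of every DO pair differed well beyond sampling noise (chi-square per feature 9.13 or more).

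Fish Mys35 stood apart from the other 24 h DO fish. It had counts for 76543 features where the other 6 DO fish had 47314 to 53069, its 100 most abundant features took 42.1% of counts against 55.4% to 61.2%, and its scaling factor was 1.85 against 0.786 to 1.03. Its log2 CPM correlated at 0.883 with Mys34 and 0.886 with Mys36, which correlated at 0.943 with each other. Among the 4 fish of 2 weeks, Mys57 correlated at 0.928 to 0.936 with the others, which correlated at 0.943 to 0.948 among themselves. Its chi-square per feature was 23.6 to 30 against them, where theirs was 9.13 to 10.3, and it correlated at 0.924 with the 24 h fish Mys36. The median standard deviation of log2 CPM per feature was 0.52 at 24 h (n = 3), 0.33 there without Mys35 (n = 2), and 0.45 at 2 weeks (n = 4). Such medians tend to be lower with fewer fish, so these values are not directly comparable. On the first principal component of the 7 fish, with 34.6% of the variance, the 24 h fish scored -54.5, -144.3 and -57.5 and the 2 week fish 33.8, 84.7, 67.2 and 70.6. The times did not overlap there, and Mys57 lay nearest to the 24 h fish. On the second component (24.2%) Mys35 scored -109.5 and the other two fish of 24 h 85.7 and 86.3.

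After 2 weeks of lowered oxygen 1915 of 34070 tested features differed from the 24 h level, which is 5.62% of those tested. Of these, 720 were higher (2.11%) and 1195 lower (3.51%) in edgeR's quasi-likelihood test at a Benjamini-Hochberg adjusted p under 0.05. At an unadjusted p under 0.05 there were 7945 features where chance gives 1704. The features that rose had a median log2 fold change of 1.68, or 3.2-fold, and those that fell one of -1.84, or 3.58-fold. Of the risers 258 changed at least 4-fold, and of the fallers 528. In whole muscle, fewer cells of a type and less RNA per cell cannot be told apart. Nor can sampling time be told apart from growth of the fish or other differences between the sampling days.

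Most changes lay in features of middle abundance. Between 10 and 100 CPM, averaged over the 7 fish, 4.61% of 4361 features rose and 7.11% fell. Between 1 and 10 CPM 3.26% of 13277 rose and 4.26% fell. Under 1 CPM 75 of 15580 features rose and 300 fell. The called features there had the largest median absolute log2 change of the classes, 3.55. At so few counts small changes rarely pass the test, and some of these folds were fitted against a group without counts. This median is thus partly set by the choice. Above 100 CPM 11 of 852 features rose and 20 fell. Of the 100 most abundant features of these fish, at 1354.3 CPM or more, 0 passed the edgeR test and 7 had an unadjusted p below 0.05. DESeq2 called 4 of them and limma voom 1. With a minimum count of 30 edgeR called 1, with scaling by library totals only 1, and in its other settings with all fish 0. Of all 34070 tested features, 1915 passed the edgeR test and 7945 had an unadjusted edgeR p below 0.05. DESeq2 called 2818 of all features and limma voom 4053. edgeR called 2345 of 21724 with the minimum count of 30, and 1855 of 34070 with library totals. Those 100 took 40.9% to 60.9% of the counts tested at 24 h and 55.1% to 61% at 2 weeks.

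**Figure D1:**
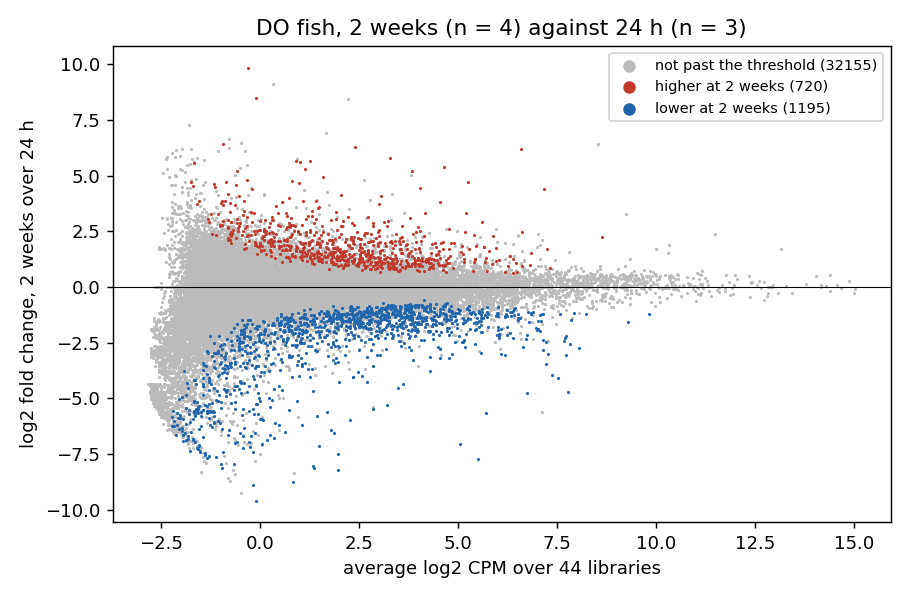
Log2 fold change between 2 weeks and 24 h in DO fish (vertical) against average log2 CPM over 44 libraries (horizontal), 1 point per tested feature. The 720 features called higher are red, the 1195 called lower are blue, and the features of highest average level, at the right, are mostly uncoloured.

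The groups did not overlap for 677 of the 720 risers (94%) and 983 of the 1195 fallers (82.3%). Over all tested features, every 2 week fish lay above every 24 h fish in 8.99% and below in 9.79%, 18.8% together. The called features were chosen for a difference between these same fish. Their lack of overlap is thus largely set by the choice and is no further support for the calls. Within the time groups, the called features were not evenly carried. Among the 4 fish of 2 weeks, Mys57 was the one nearest to the 24 h level in 364 of 720 risers (50.6%) and 634 of 1195 fallers (53.1%), and Mys58 in 59 and 94. Among the 24 h fish, Mys35 was nearest to the 2 week level in 297 risers (41.2%) and 473 fallers (39.6%), ahead of Mys34 with 200 and 394 and Mys36 with 223 and 328. Mys57 and Mys35 also had the lowest mean correlation within their groups. The same shares over all tested features were not computed, so whether this is particular to the called features was not tested.

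The number of features called depended on single fish. Without the 24 h fish Mys34 or Mys36, edgeR called 1077 and 1048 features, and without the 2 week fish Mys58, Mys59 or Mys60 it called 550, 966 and 975. Without Mys57 the count was 2159 and without Mys35 it was 1369. Of the 1915 features, 378 were called with each of the 7 fish left out in turn, 150 of them higher and 228 lower. These 378 had a median log2 fold change of 2.08 for risers and -1.94 for fallers.

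**Figure D2:**
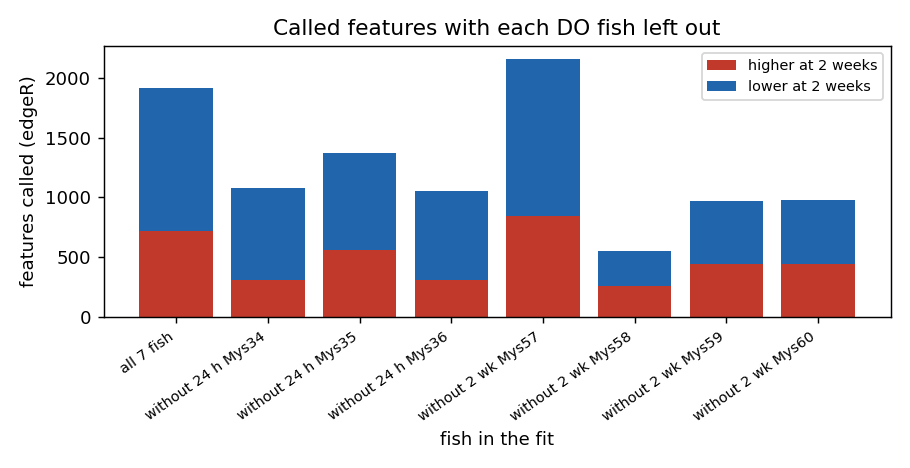
Number of features called by edgeR between 2 weeks and 24 h in DO fish (vertical), with all 7 fish and with each fish left out (horizontal), red for higher and blue for lower at 2 weeks. The count runs from 550 without Mys58 to 2159 without Mys57.

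By a rule on fold and abundance, 2 risers and 2 fallers are described fish by fish; what their genes do is unknown, since the identifiers carry no name. TRINITY_DN43768_c1_g1 was the most abundant riser of at least 2-fold among those whose times did not overlap. Its level was 117.7, 215.4 and 148.1 CPM in the 24 h fish Mys34, Mys35 and Mys36, and 449.1, 1008.1, 962.3 and 624.6 CPM in the 2 week fish Mys57 to Mys60. Every 2 week fish lay above every 24 h fish, and Mys57 was the lowest of its group. The means were 160.4 ± 50 CPM (SD, n = 3) and 761 ± 269.2 CPM (SD, n = 4), which edgeR fitted as 2.25 on the log2 scale (SE 0.39, adjusted p = 0.00153). Control fish had 180.5 ± 29.1 CPM at 24 h and 687.3 ± 297.1 CPM at 2 weeks (SD, n = 4 each), and the DO fish of 12 h had 299.8 ± 63.4 CPM (SD, n = 4).

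TRINITY_DN47817_c3_g1 had the largest rise among features with an average log2 CPM of at least 1 and no overlap between the times. It was close to the resolved limit at 24 h, with 0.375, 0.14 and 0.238 CPM, or 13 counts in all, in Mys34, Mys35 and Mys36. At 2 weeks Mys57 to Mys60 had 2.55, 6.9, 25 and 38.2 CPM. All 2 week fish were higher, yet they ranged widely among themselves, with Mys57 again lowest. The log2 fold change was 6.27 (SE 1.32, edgeR adjusted p = 0.00552). In control fish the level went from 0.234 ± 0.161 to 12.4 ± 11.9 CPM (SD, n = 4 each), 5.78 higher in log2 (SE 1.16, edgeR adjusted p = 0.000398).

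TRINITY_DN47322_c0_g2 was the most abundant faller of at least 2-fold among those whose times did not overlap. Called fallers with overlapping fish, such as TRINITY_DN54968_c3_g3 (911.5 to 306.3 CPM, named after its values were seen), were more abundant. Mys34, Mys35 and Mys36 had 341.1, 206.8 and 355.6 CPM at 24 h, and Mys57 to Mys60 had 133.1, 125.2, 165.6 and 109 CPM at 2 weeks. The groups did not overlap, with Mys35 the nearest of the 24 h fish to the later level. The fitted log2 change was -1.18 (SE 0.26, edgeR adjusted p = 0.0057), from 301.2 ± 82 CPM (SD, n = 3) to 133.2 ± 23.8 CPM (SD, n = 4). Control fish went from 304.1 ± 37.8 to 169.4 ± 31.6 CPM (SD, n = 4 each), with a fitted log2 change of -0.84 (SE 0.24, edgeR adjusted p = 0.00798).

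TRINITY_DN1417_c0_g1 was picked for its fitted fall under the same limits, a fit against a group at 0 that does not show it to be the largest. It stood at 0.975, 3.33 and 1.19 CPM in Mys34, Mys35 and Mys36, or 147 counts, and had 0 counts in all 4 DO fish of 2 weeks. With 3 counts over the 2 week group as floor, it was at least 47.4-fold lower (pooled counts of the 3 fish, edgeR adjusted p = 0.0332). Of the 147 counts 119 came from Mys35, and without that fish the bound was 21.5-fold. The call was lost in 8 of 17 alternatives, among them the fits without Mys35 (adjusted p 0.108) and without any single fish of 2 weeks. It had 0 counts in 13 of the 14 fish of 2 weeks of all exposures, whereas control fish of 24 h had 0.997, 29.6, 16.8 and 20.3 CPM.

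**Figure D3:**
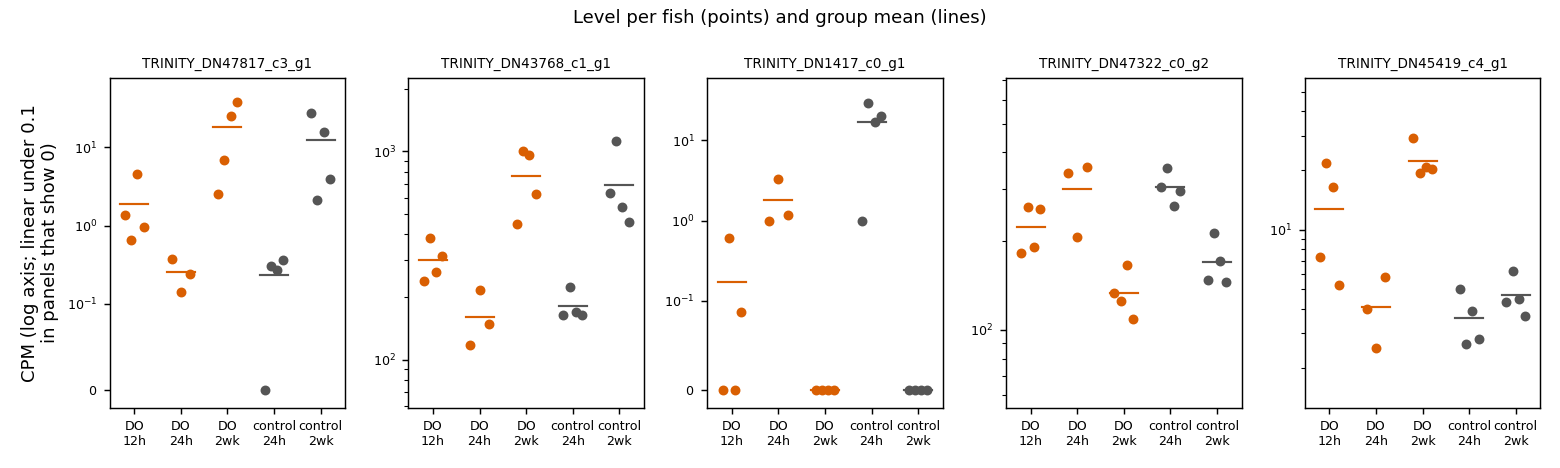
CPM per fish (points, vertical log axis, linear under 0.1 where a panel shows 0) and group mean (lines) of 5 features in DO fish of 12 h, 24 h and 2 weeks (orange) and control fish of 24 h and 2 weeks (grey). In the first 4 panels DO and control fish moved in the same direction, and in the last, TRINITY_DN45419_c4_g1, 2 week DO fish lie above all control fish shown.

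A group of fallers was near absent after 2 weeks. For 178 of the 1195, the 4 DO fish of 2 weeks had at most 3 counts together, and for 77 of these none. Their summed level was 60.5, 575.3 and 61 CPM in Mys34, Mys35 and Mys36, and 3.78, 2.34, 3.18 and 2.67 CPM in Mys57 to Mys60. Mys35 was thus far above the other 24 h fish, and it had the highest level of the 3 fish in 130 of the 178 features. Without Mys35 the mean over 24 h fish was 60.7 CPM instead of 232.2 CPM. Of the 107 features that could then be tested, 40 were called lower and 102 were lower in sign. The features were chosen for at most 3 counts over the 4 DO fish of 2 weeks, which stayed in that fit. The lower sign is thus largely set by the choice, and the calls partly. Neither count is an independent check of the fall.

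The same 178 features were low in the other fish of 2 weeks. Those fish entered the low-count filter over all 44 libraries, and 71 of the 178 passed it only with Mys35 included, so their low level elsewhere is partly set by the choice. Their sum ran from 7.67 to 9.27 CPM in 4 control fish, 6.87 to 8.96 CPM in 2 pH fish and 9.27 to 17.3 CPM in 4 cross fish. At 24 h it ran from 55.2 to 151.8 CPM in 4 control, 32.9 to 78.1 CPM in 3 pH and 28.3 to 642.9 CPM in 4 cross fish, and at 12 h from 15 to 83.9 CPM over 16 fish. No fish of 12 h other than DO fish Mys23 and Mys21 (15 and 16.9 CPM) fell below the highest fish of 2 weeks, and none of 24 h did. The highest of all was cross fish Mys7068, which like Mys35 had many features with a count (67685) and a high scaling factor (1.64). The part of these library differences in the result was not tested.

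With all 7 fish, the opposite group was small. For 16 of the 720 risers the 3 DO fish of 24 h had at most 3 counts together. Their summed level was 0.375, 0.419 and 0.317 CPM at 24 h and 34.6, 17.7, 13 and 12.6 CPM in Mys57 to Mys60, with Mys57 here the highest. In control fish the sum ran from 1.02 to 3.69 CPM at 24 h and from 11.6 to 15.3 CPM at 2 weeks. Counted with features at the floor set to their bound, the median log2 fold change was 1.68 over all risers and -1.84 over all fallers. Without these features it was 1.65 and -1.65. The small size of the riser group depended on Mys35. In the fit without that fish, 59 of 557 called risers had at most 3 counts over Mys34 and Mys36. Of 812 called fallers, 42 had at most 3 counts over the DO fish of 2 weeks. A limit of 3 counts is easier to meet over fewer fish.

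Whether the step from 24 h to 2 weeks was particular to lowered oxygen was asked in control fish, which share no library with it. Of the 720 features that rose under lowered oxygen, 712 (98.9%) had a higher mean at 2 weeks in control fish, where 46.2% of all tested features did. Of the 1195 that fell, 1163 (97.3%) were lower in control fish, where 53.4% of all features were. edgeR called 573 of the risers (79.6%) higher and 914 of the fallers (76.5%) lower in control fish, beside 9.85% and 14.9% of all features (24.7% in either direction). The median log2 fold change of the risers was 1.68 in DO and 1.49 in control fish, and of the fallers -1.84 and -1.99. The features were chosen for their change in DO fish, and their DO medians are descriptions.

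**Figure D4:**
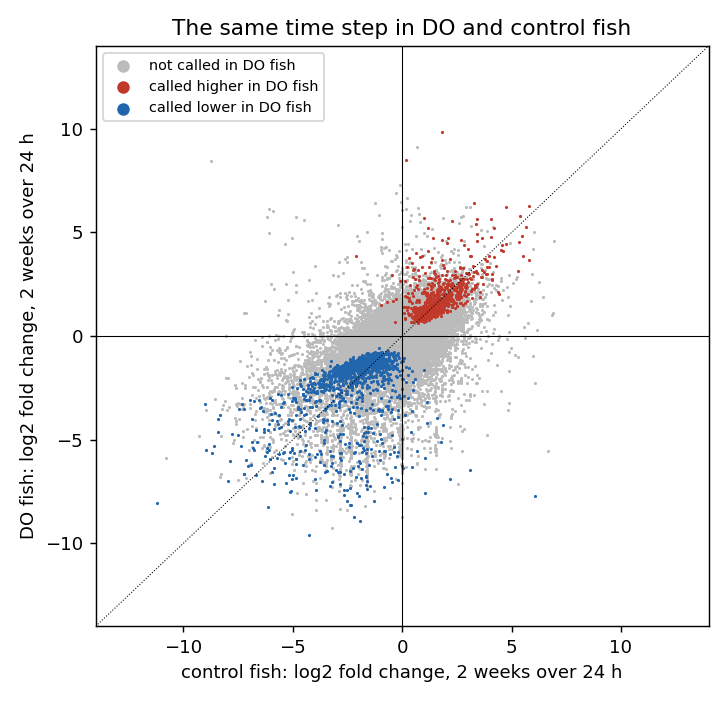
Log2 fold change between 2 weeks and 24 h in DO fish (vertical) against that in control fish (horizontal), 1 point per tested feature, with the line of equal change dotted. Features called higher (red) and lower (blue) in DO fish lie almost all in the quadrants of equal sign, 712 of 720 and 1163 of 1195.

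The difference between the DO and control steps passed the edgeR test for 0 of 34070 features (0%; smallest adjusted p 0.42). At an unadjusted p under 0.05 there were 2891 where chance gives 1704. DESeq2 called 13 features and limma voom 118. edgeR itself called 60 without the low-count filter, 65 without control fish Mys25, and 0 with any other control or DO fish of these times left out. Control fish had more called features over the step, 8419 against 1915, and still 6597 to 9521 with a single 24 h control fish left out so that 3 fish stood against 4. A call in 1 exposure and not in the other is no test of a difference, and the direct test gave the values above.

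Features called in DO fish and not in the same direction in controls numbered 147 higher and 281 lower. Of these, 139 and 249 had the same sign in control fish. The median log2 fold changes were 1.87 in DO and 0.65 in control fish for risers, and -3.58 and -0.88 for fallers. These features were chosen for a call in DO fish and none in that direction in control fish. The larger DO medians are thus partly set by the choice and do not measure a difference between the steps. TRINITY_DN45128_c3_g1, chosen after its values were seen, was the 1 feature called in opposite directions. It stood at 251.1, 68.1 and 1.9 CPM in Mys34, Mys35 and Mys36 and at 0.822, 0, 0.265 and 0.975 CPM in Mys57 to Mys60. Control fish had 0.593 to 3.55 CPM at 24 h and 90.1 to 258.5 CPM at 2 weeks. The difference of the steps was -13.77 on the log2 scale (SE 2.89, edgeR adjusted p = 0.42), the DO call was lost in 8 of 17 alternatives, and over all 44 fish 13 were at 68.1 CPM or more and 31 at 4.22 CPM or less.

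The pH and cross fish gave the same picture. The sign matched in 696 of 720 risers and 1133 of 1195 fallers in pH fish, and in 702 and 1176 in cross fish. edgeR called 362 risers (50.3%) and 610 fallers (51%) in the same direction in pH fish, beside 4.26% and 5.73% of all features (9.99% in either direction). In cross fish it called 247 (34.3%) and 442 (37%), beside 1.53% and 2.37% (3.89% in either direction). Seen from the other lists, these are 24.9% and 31.2% of the features called in pH fish and 47.5% and 54.8% of those called in cross fish. In all, 1774 of the 1915 features (92.6%) had the same sign in control, pH and cross fish. The difference between the DO step and the pH step passed the edgeR test for 0 features, with 2519 at an unadjusted p below 0.05. That between the DO and cross steps passed for 0, with 1117, where chance gives 1704. The chance count is thus only a rough guide for differences of steps, that between DO and control fish included. No other tool was run for the pH and cross differences.

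Lists chosen in other fish allowed the size of the DO and control steps to be set side by side without choosing features on either. Since the labels leave cross undefined, whether the cross lists are neutral between DO and control is unknown. Over the 520 features called higher in cross fish, the median log2 fold change was 1.19 in DO and 1.4 in control fish, and over the 807 called lower it was -1.6 and -2.02. Over the 1453 features called higher in pH fish the medians were 0.85 and 1.02, and over the 1952 called lower -0.92 and -1.39. The DO median was the smaller in each of these 4 lists. These medians are descriptions with no test, and all of them share the 24 h and 2 week sampling.

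TRINITY_DN45419_c4_g1, chosen after its values were seen, is described because DO and control fish of 2 weeks lay apart in it, by 2.26 in log2 (SE 0.48, edgeR adjusted p = 0.282 over all features). Over the time step it rose in DO fish, from 3.97, 2.52 and 5.79 CPM in Mys34, Mys35 and Mys36 to 29.2, 19.4, 20.8 and 20.4 CPM in Mys57 to Mys60. The groups lay far apart, and Mys57 was the highest fish here. The step was 2.47 in log2 (SE 0.54, edgeR adjusted p = 0.00607), and the call held in all 17 alternatives. Control fish had 3.6 ± 1.1 and 4.66 ± 1.09 CPM (SD, n = 4 each) at the same times, or 0.37 in log2 (SE 0.47, edgeR adjusted p = 0.613). The pH fish had 4.39 ± 0.981 CPM at 24 h (SD, n = 3) and 11.5 ± 2.73 CPM at 2 weeks (SD, n = 2), 1.38 in log2 (SE 0.59, edgeR adjusted p = 0.137), and the DO and pH steps differed by 1.09 (SE 0.79, edgeR adjusted p = 0.778). Cross fish had 6.65 ± 6.22 and 5.29 ± 1.04 CPM (SD, n = 4 each). The DO fish of 12 h had 7.32, 21.8, 16.5 and 5.28 CPM, so 1 of them was already within the 2 week range. The DO and control steps differed by 2.1 (SE 0.7) at an unadjusted edgeR p of 0.00454, adjusted p 0.443.

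The fish of 12 h were set beside the comparison. Relative to the mean of the 24 h DO fish, the median log2 level of the 720 risers was 0.77, 0.66, 1.04 and 0.74 higher in the 12 h fish Mys21 to Mys24, and 1.3, 1.76, 1.59 and 1.59 higher in Mys57 to Mys60. For the 1195 fallers the 12 h fish stood at -1.01, -0.35, -1.07 and -0.73, and the 2 week fish at -1.29, -1.86, -1.7 and -1.69. All 12 h DO fish thus lay between the 24 h and the 2 week fish on both lists. Since the lists were chosen for 24 h and 2 weeks being far apart in DO fish, this order is partly set by the choice. In control fish, which were not used to choose them, the 12 h fish stood from -0.04 to 0.9 for risers and from -0.7 to 0.02 for fallers, and the 24 h fish from -0.05 to 0.27 and from -0.37 to 0.33. Control fish of these times overlapped on both lists. All 14 fish of 2 weeks stood at 1.17 or more for risers and at -1.14 or less for fallers, beyond every fish of 12 h and 24 h. The DO fish of 24 h and 2 weeks were used to choose the lists, so their places are set by the choice. Only the control, pH and cross fish stand apart from it.

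**Figure D5:**
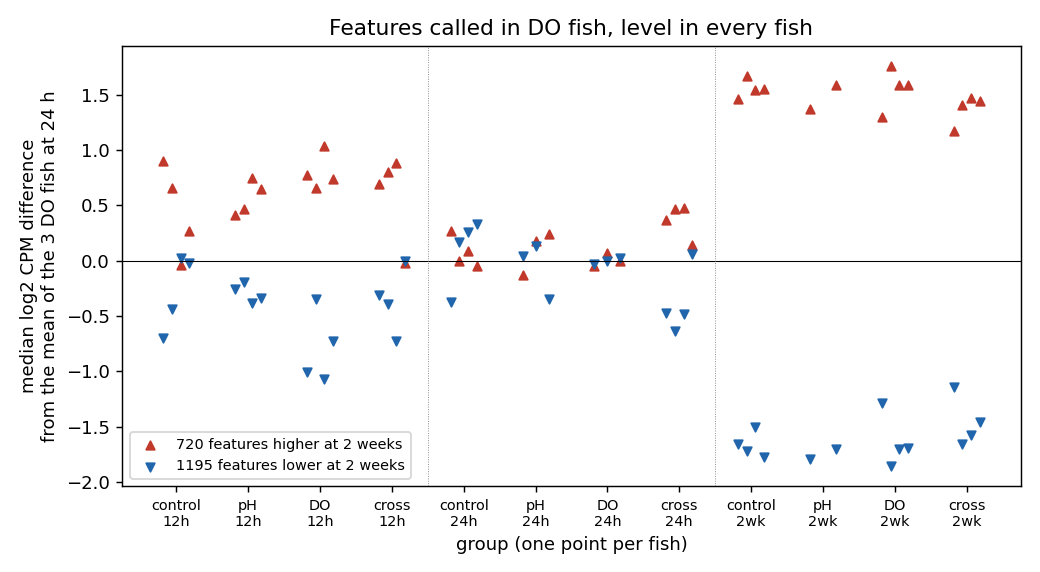
Median log2 CPM difference from the mean of the 3 DO fish at 24 h (vertical) for every fish of the 12 groups (horizontal), over the 720 features called higher (red, upward) and the 1195 called lower (blue, downward) at 2 weeks in DO fish. Fish of 2 weeks of all exposures lie at 1.17 to 1.76 and at -1.86 to -1.14, and DO fish of 12 h lie between their 24 h and 2 week groups. The DO fish of 24 h and 2 weeks were used to choose both lists.

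Direct comparison of 24 h with 12 h DO fish gave 2 called features (0.00587% of those tested), both higher at 24 h, beside 3766 with an unadjusted edgeR p below 0.05. They are named after their values were seen. TRINITY_DN53539_c0_g3 had 0.763 ± 0.639 CPM at 12 h (SD, n = 4), 8.2 ± 5.19 CPM at 24 h (SD, n = 3) and 0.926 ± 0.306 CPM at 2 weeks (SD, n = 4). TRINITY_DN47201_c2_g3 had 0.771 ± 0.315, 3.83 ± 1.11 and 0.776 ± 0.226 CPM at these times. Both were thus high at 24 h and back near the 12 h level at 2 weeks (edgeR adjusted p = 0.0375 for each, 24 h against 12 h). Control fish were also lower in both at 2 weeks than at 24 h. Their log2 changes were -2.632 and -1.79 (edgeR adjusted p = 0.000511 and 0.000577). As a share of each library, the 720 risers took 0.313%, 0.745% and 0.359% of tested counts in Mys34, Mys35 and Mys36 and 0.84%, 1.41%, 1.28% and 1.29% in Mys57 to Mys60. The 1195 fallers took 2.05%, 4.06% and 2.31% at 24 h and 0.936%, 0.639%, 0.722% and 0.763% at 2 weeks. Mys35 had the highest share of both lists among the 24 h fish, but these shares are not scaled with TMM factors, and its factor was 1.85. On the scaled log2 level, its median difference from the mean of the 24 h DO fish was 0.07 for risers and 0 for fallers. Mys34 stood at -0.05 and -0.03 there, and Mys36 at 0 and 0.02.

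The features called without Mys35 behaved alike in control fish. Of 31894 features then tested, 557 were higher and 812 lower, and 375 and 678 of these were also called with all 7 fish in the same direction. In control fish 547 of the 557 had a higher and 798 of the 812 a lower mean at 2 weeks, and edgeR called 416 (74.7%) and 700 (86.2%) of them there. The shares over all tested features were not computed for this fit. In the fit with all fish, 46.2% of all features were higher and 53.4% lower in control fish, and edgeR called 9.85% and 14.9%. In the fit without Mys35 risers had a median absolute log2 change of 2.04 and fallers of 1.65. Fallers of at least 8-fold numbered 112 without Mys35 and 312 with it, and risers of at least 8-fold 115 and 81. Without Mys35, 59 of the 557 risers had at most 3 counts at 24 h, and 42 of the 812 fallers at most 3 at 2 weeks. The fitted folds of those features rest on a group near the floor, and no bound was set for them.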

How the data were processed

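The authors deposited 1 table of expected counts per sampling time (estimated reads per assembled feature, not normalized), with 239549 Trinity features and 9.6% of values not whole. The submitters' processing notes name RSEM 1.3.0, Trimmomatic 0.36, Bowtie, FastQC 0.11.5 and edgeR without their roles. Per the labels' protocols, stranded mRNA libraries were prepared in 2 sets of 24, and which set a fish belonged to is unknown here. A gene can be spread over more than 1 feature, and near-identical copies may share reads.

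Tables were joined by identifier and counts rounded. Tests used R 4.3.3 and edgeR 4.0.16 (quasi-likelihood, robust, TMM, filterByExpr with minimum count 10 and total 15, two-sided, Benjamini-Hochberg over 34070 features, threshold 0.05) in 1 fit of all 44 libraries with 12 groups, and differences of time steps as interaction contrasts. CPM values are TMM-scaled, and log2 CPM used a prior count of 2. Each SE is the absolute log2 fold change over the square root of F. P-values treat fish as independent, although some must have shared an aquarium.

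Named features are, per direction, the called feature with the largest fold and the most abundant one of at least 2-fold, provided its average log2 CPM reached 1 and the times did not overlap. The members, lists and rules were chosen with earlier results of these data known. Marker and pathway lists could not be applied without gene names. Alternatives were RLE size factors, no filter, a minimum count of 30, 1 surrogate variable (sva 3.50.0), DESeq2 1.42.0, voom with sample weights in limma 3.58.1, fewer groups in the fit and each fish left out. Upper quartile scaling and library totals alone were added after seeing the data. The test of the DO step was tried on simulated counts with 100 features changed 2-fold and 100 changed 4-fold. It recovered 5% and 54% of them, with 2 false calls. All other features were simulated as unchanged between the DO groups, which made the adjusted threshold stricter than in the real data. The changed features were drawn only from those above a low minimum level. These shares hold for that setting, and the share of such changes missed in the real data is unknown. Differences of time steps were not simulated.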

Additional observations from a re-analysis of the deposited data

Results flagged for a closer look

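In groups of 4 fish, 36 sets of values were taken. In 5 of them the gap of 1 fish to the nearest other took an unusually large part of the group's range. Chance gives about 1 in 20 of the sets that have a range. The 36 include TRINITY_DN1417_c0_g1 in DO and in control fish of 2 weeks, all at 0, which could not be flagged. At 2 weeks DO fish Mys57 had 29.2 CPM of TRINITY_DN45419_c4_g1, where the others had 19.4 to 20.8 CPM. The same fish had a TMM scaling factor of 0.822, where the others had 0.996 to 1.03. Control fish Mys26 had 223.8 CPM of TRINITY_DN43768_c1_g1 at 24 h, beside 163.6 to 170.3 CPM. Control fish Mys49 had a scaling factor of 1.03 at 2 weeks, where the others had 1.21 each. DO fish Mys22 had 0.602 CPM of TRINITY_DN1417_c0_g1 at 12 h, beside at most 0.088 CPM.

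TRINITY_DN45128_c3_g1 moved in opposite directions in DO and control fish over the time step, with no overlap between the times in either exposure and a difference of -13.77 on the log2 scale. The edgeR test of this difference gave an unadjusted p of 3.87e-05 and an adjusted p of 0.42. In DO fish the gap between the times was narrow, from 1.9 CPM in Mys36 at 24 h to 0.975 CPM in Mys60 at 2 weeks. In the series 13 fish were at 68.1 CPM or more and 31 at 4.22 CPM or less. Both levels also occurred within a group. DO fish of 24 h had 251.1, 68.1 and 1.9 CPM, and pH fish of 24 h had 1.33, 0.831 and 149.1 CPM. Cross fish of 24 h had 79.7, 1.09, 202.8 and 0.785 CPM. Cross fish of 12 h and of 2 weeks were split in the same way.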

How the results depend on the processing

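The count of features changed between 24 h and 2 weeks in DO fish, 1915, was 1603 to 2818 under the other settings that kept all 7 fish, except 4053 under voom, and 550 to 2159 with a fish left out; 596 features were called in all 10 settings that kept all fish. Scaling by library totals alone, chosen after seeing the data, moved the split from 720 higher and 1195 lower to 179 and 1676, with a median log2 fold change of all features of -0.35 in place of -0.07. The count in control fish was 6220 to 11888, and 6538 to 9521 with a fish left out. The difference of the steps, 0 features, gave 60 without a filter, 13 in DESeq2, 118 in voom and 0 to 65 with a fish left out; the cause was not tested. None of the 6 features followed under these alternatives reversed between 24 h and 2 weeks; the 2 features called between 12 h and 24 h were not followed. No paired analysis was possible because no fish number recurs between groups. Depth and 3 against 4 fish limit what can be called.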

Other observations

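Features that share a Trinity component, the part of the identifier before the gene number, can be copies or fragments of related transcripts. Among the 1915 features called between 24 h and 2 weeks in DO fish, 224 shared a component with another called feature. They formed 127 pairs, of which 91 (71.7%) moved in the same direction and 36 in opposite directions. Over all tested features 55.5% of 22680 such pairs had the same sign. Called features of both directions occurred in 31 components, and no component held 5 or more called features. Pairs within a component share reads and sequence, so these shares are descriptions with no test.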
